A study of Homo sapiens with 4 samples.

Results

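The untreated libraries of K562 and THP-1 cells were compared gene by gene, to describe how the 2 leukemia lines differ before any drug is given. They are 2 of the 4 libraries in the series, chosen by their labels, and the libraries treated with periplocin were not used. K562 is an established human cell line from a chronic myeloid leukemia in blast crisis, and THP-1 is one from an acute monocytic leukemia. Both were grown in RPMI medium with fetal bovine serum and, by the methods of the study, kept for 72 h in DMSO, the drug's solvent, although the sample titles call these controls blank. THP-1 came as a gift from another laboratory and K562 from a cell bank, so each line stands for the stock used here. Poly-A RNA of each line was sequenced as 1 library, so that line and library cannot be told apart, no difference has a replicate check and no p-value is given.

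Red cells and monocytes arise from a common myeloid progenitor. The red cell path is set by GATA1, its partner TAL1 and KLF1, which switch on globin, heme and membrane genes, and the monocyte path by PU.1 (encoded by SPI1), C/EBP factors and IRF8, which switch on granule enzymes, receptors and antigen presentation. K562 is known as a model of the erythroid and megakaryocytic path and carries the BCR-ABL1 fusion, an active tyrosine kinase. THP-1 is known as a model of monocytes and carries the KMT2A-MLLT3 fusion, a chromatin regulator whose kind is known to keep HOXA genes active.

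GATA factors bind DNA at AGATAA and PU.1 at GAGGAAGT. The promoters below were chosen as those holding the most matches among the erythroid genes called higher in K562 and the myeloid genes called higher in THP-1, with ties broken by the larger count, so that the letters can be read beside the expression values. They are the 250 bases before the RefSeq start of each gene, 5′ to 3′ on the gene's strand in GRCh38.p14, with matches on either strand in capitals. EPB42, a red cell membrane protein, lies on the minus strand at chr15:43221019-43221268 and had 24 counts in K562 and 0 in THP-1. TAL1 lies on the minus strand at chr1:47232336-47232585, and its match is on the opposite strand and so reads TTATCT. PRTN3, proteinase 3 of neutrophil granules, lies on the plus strand at chr19:840749-840998. TYROBP, an adaptor of activating receptors, lies on the minus strand at chr19:35908296-35908545, again with its match on the opposite strand.
EPB42: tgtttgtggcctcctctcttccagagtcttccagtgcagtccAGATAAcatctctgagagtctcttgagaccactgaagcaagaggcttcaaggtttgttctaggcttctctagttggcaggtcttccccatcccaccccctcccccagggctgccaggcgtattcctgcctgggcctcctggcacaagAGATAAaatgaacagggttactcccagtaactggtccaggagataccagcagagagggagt
TAL1: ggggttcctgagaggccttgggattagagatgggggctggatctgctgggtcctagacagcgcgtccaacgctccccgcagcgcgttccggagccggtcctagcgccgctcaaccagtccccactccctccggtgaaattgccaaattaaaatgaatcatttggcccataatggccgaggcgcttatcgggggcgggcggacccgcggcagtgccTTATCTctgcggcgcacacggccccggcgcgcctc
PRTN3: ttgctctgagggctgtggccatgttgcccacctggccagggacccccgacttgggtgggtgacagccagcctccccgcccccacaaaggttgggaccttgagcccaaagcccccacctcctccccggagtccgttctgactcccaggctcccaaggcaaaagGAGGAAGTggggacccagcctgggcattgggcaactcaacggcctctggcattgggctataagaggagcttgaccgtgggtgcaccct
TYROBP: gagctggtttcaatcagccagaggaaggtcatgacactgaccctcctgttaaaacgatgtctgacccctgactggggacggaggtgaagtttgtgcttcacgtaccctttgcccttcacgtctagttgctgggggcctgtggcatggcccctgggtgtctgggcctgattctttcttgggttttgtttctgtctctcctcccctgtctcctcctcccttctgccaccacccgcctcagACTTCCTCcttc

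The AGATAA matches of EPB42 start 208 and 61 bases before the gene's start, and that of TAL1 starts 35 bases before it. The GAGGAAGT match of PRTN3 starts 88 bases before the gene's start and that of TYROBP 12 bases before it. These promoters are not typical of their lists. AGATAA was found in 9 of 20 called erythroid genes with a promoter in the table, and GAGGAAGT in 2 of 37 called myeloid genes, the ones shown. AGATAA was found in 8.94% of the promoters of genes at least 4-fold higher in K562 (164 of 1834, 95% Wilson interval 7.72 to 10.3), in 6.52% of those at least 4-fold higher in THP-1 (5.60 to 7.59) and in 5.35% of the promoters of all genes compared. GAGGAAGT was found in 3.53% of the promoters of genes higher in THP-1 (84 of 2377, 2.86 to 4.35), in 1.85% of those higher in K562 (1.33 to 2.58) and in 2.26% of the promoters of all genes compared. Among these sets, AGATAA was most frequent in genes higher in K562 and GAGGAAGT in genes higher in THP-1. AGATAA was also more frequent in genes higher in THP-1 than in all genes compared. Whether a factor accounts for these shares was not tested. In the whole RefSeq table, which also holds genes silent in both lines, AGATAA was in 9.17% of promoters, more than in the genes higher in K562, and GAGGAAGT in 2.17%. A C/EBP motif, TTGCNNAA, was in 8.20% of the promoters of genes higher in THP-1, 7.52% of those higher in K562 and 6.54% of those of all genes compared. For a RUNX motif, TGTGGT, the shares were 9.84%, 9.27% and 8.42%. Both of these motifs were thus above the share of all genes in either line's set. The promoters come from 1172 genes higher in K562 and 1502 higher in THP-1, and those of 1 gene can overlap, so the intervals are too narrow, and a match is a run of letters and not a measured binding site.

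The libraries held 16381166 counts in K562 and 20622711 in THP-1, and 14813 and 15313 genes had a count. Mitochondrially encoded transcripts took 5.62% and 5.24% of the counts, and the 10 most abundant genes took 8.04% and 8.02%. Ratios are of counts scaled by TMM, a factor that balances the libraries over most genes, and log2 ratios are THP-1 over K562, so that negative values are higher in K562. A gene was compared when its mean was at least 10 scaled counts, and it is called higher in a line when it differed at least 4-fold and its 95% interval excluded no difference. Intervals cover counting error only. A count of 0 allows up to 3 counts, so a ratio against 0 is given as at least the ratio against 3. That limit is one-sided, and the two-sided interval would start somewhat lower.

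Of 13412 genes compared, 1986 (14.8%) were called higher in THP-1 and 1556 (11.6%) higher in K562, and the median log2 ratio was 0.03. Another 7355 genes (54.8%) differed by less than 2-fold. Toward the extremes, 263 genes had no count in K562 and at least 100 in THP-1, and 98 genes the reverse. Across genes, which are not replicates, Pearson's r of log2 CPM (the usual unit of counts scaled to a common library total) was 0.633.

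**Figure D1:**
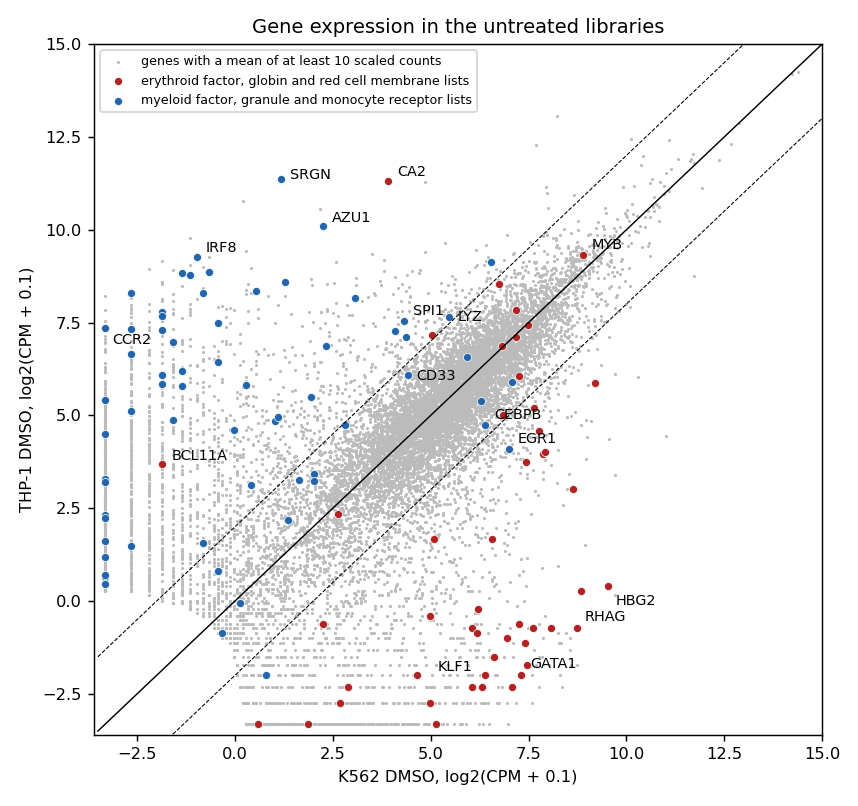
Each point is 1 of 13412 genes, with its level in the K562 library on the x axis and in the THP-1 library on the y axis, both as log2 of CPM plus 0.1. The solid line marks equal levels and the dashed lines 4-fold differences. Erythroid list genes (red) lie mostly low on the THP-1 axis and myeloid list genes (blue) mostly at the left edge, where K562 had few or no counts. CA2 and BCL11A lie on the side opposite to most of their lists.

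The erythroid transcription factors stood far apart between the lines. Of 15 compared, 10 were called higher in K562 and 2 in THP-1, with a median log2 ratio of -3.92. GATA1 (ENSG00000102145), the zinc finger factor that commits cells to the red cell and platelet paths, had 2715 counts in K562 and 3 in THP-1 (1047-fold, 95% interval 358 to 5082). KLF1, which activates adult globin and membrane genes, had 1428 counts in K562 and 3 in THP-1 (551-fold, 95% interval 188 to 2675). TAL1, the partner of GATA1 whose promoter is shown above, had 3350 counts in K562 and 10 in THP-1 (388-fold, 95% interval 211 to 809). These 3 factors were thus well expressed in K562 and near the limit of counting in THP-1.

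Other members of the GATA1 circuit followed the same order. GFI1B, a repressor needed for red cell and platelet formation, had 1353 counts in K562 and 2 in THP-1 (783-fold, 95% interval 216 to 6472). HEMGN, a GATA1 target of erythroid nuclei, had 3018 counts in K562 and 4 in THP-1 (873-fold, 95% interval 341 to 3207), and SOX6, which silences embryonic globin, had 543 counts in K562 and 1 in THP-1 (628-fold, 95% interval 112 to 24869). GATA2 and NFE2, which act earlier or in platelet formation, were lower in THP-1 but still present there, with 4008 counts in K562 and 306 in THP-1 for GATA2 (15.2-fold, 95% interval 13.5 to 17.1) and 4128 counts in K562 and 316 in THP-1 for NFE2 (15.1-fold, 95% interval 13.5 to 17). The members higher in THP-1 were LMO2, a bridging protein of the TAL1 complex, with 555 counts in K562 and 2821 in THP-1 (4.39-fold, 95% interval 4.01 to 4.82), and BCL11A, a repressor of fetal globin, with 3 counts in K562 and 255 in THP-1 (73.4-fold, 95% interval 24.8 to 358). MYB, a factor of progenitor growth, was abundant in both lines, with 8071 counts in K562 and 12669 in THP-1 (1.36-fold, 95% interval 1.32 to 1.39).

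The myeloid and monocyte factors had the opposite order, with 14 of 22 called higher in THP-1, 1 higher in K562 and a median log2 ratio of 3.02. IRF8, which directs progenitors to the monocyte path, had 7 counts in K562 and 12161 in THP-1 (1501-fold, 95% interval 728 to 3734). CEBPA, which starts granule gene expression, had 23 counts in K562 and 6492 in THP-1 (244-fold, 95% interval 162 to 385). SPI1, which encodes PU.1, differed by less and was present in K562 too, with 339 counts in K562 and 3702 in THP-1 (9.43-fold, 95% interval 8.44 to 10.6).

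The widest gap of the list was at IRF5, an interferon regulatory factor of macrophage inflammation, with 1 count in K562 and 3145 in THP-1 (2717-fold, 95% interval 487 to 107358). GFI1, the granulocytic counterpart of GFI1B, had 40 counts in K562 and 7610 in THP-1 (164-fold, 95% interval 121 to 230.3), so that the GFI1 and GFI1B genes were expressed in opposite lines. HLX, a homeobox factor of myeloid cells, had 5 counts in K562 and 1449 in THP-1 (250.4-fold, 95% interval 107 to 772). CEBPE, a factor of granulocyte maturation, was low even in THP-1, with 0 counts in K562 and 29 in THP-1. EGR1, an immediate early factor also used in monocyte maturation, was the member called higher in K562, with 2182 counts in K562 and 339 in THP-1 (7.45-fold, 95% interval 6.64 to 8.38).

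The HOX clusters divided the lines. HOX genes are homeobox factors of body position that blood progenitors use in graded order. On chromosome 7 (27162435 to 27200106, hg38), HOXA9, HOXA10, HOXA11 and HOXA13 formed a run of genes called higher in THP-1. A run here is at least 4 neighbours all called the same way, among genes whose mean reached 5 CPM, so weaker genes may lie between. HOXA9, the HOXA gene best known in acute leukemia, had 4 counts in K562 and 1572 in THP-1 (339.5-fold, 95% interval 132 to 1248), HOXA10 had 1 count in K562 and 1361 in THP-1 (1176-fold, 95% interval 211 to 46478), and HOXA13 had 0 counts in K562 and 1685 in THP-1 (at least 485-fold). On chromosome 17 (48540894 to 48633572), 7 HOXB genes from HOXB2 to HOXB9 formed a run called higher in K562, and HOXB5 lay between them under that mean, with 106 counts in K562 and 0 in THP-1 (at least 40.9-fold). HOXB9 had 6586 counts in K562 and 4 in THP-1 (1906-fold, 95% interval 744 to 6996), HOXB2 had 831 counts in K562 and 0 in THP-1 (at least 321-fold), and HOXB4, a gene of stem cell expansion, had 852 counts in K562 and 107 in THP-1 (9.22-fold, 95% interval 7.53 to 11.4).

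Across the lists, 8 of 15 compared HOXA, MEIS and PBX genes were called higher in THP-1 and 1 in K562. Their median log2 ratio was 3.40, or 2.66 with genes at 0 set to their bound, 2.14 scaled by total counts and 5.28 for genes whose mean reached 5 CPM. Of 9 HOXB genes, 8 were called higher in K562 and 1 in THP-1 (median -4.44). The HOXB exception was HOXB13, at the far end of its cluster, with 3 counts in K562 and 61 in THP-1 (17.6-fold, 95% interval 5.73 to 87.5). The HOX cofactors split, as PBX3 had 95 counts in K562 and 4279 in THP-1 (38.9-fold, 95% interval 31.8 to 48.2), whereas MEIS1, often paired with HOXA9 in leukemia, had 116 counts in K562 and 6 in THP-1 (22.4-fold, 95% interval 9.97 to 62.2). THP-1 therefore expressed HOXA9 with PBX3 and little MEIS1.

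**Figure D2:**
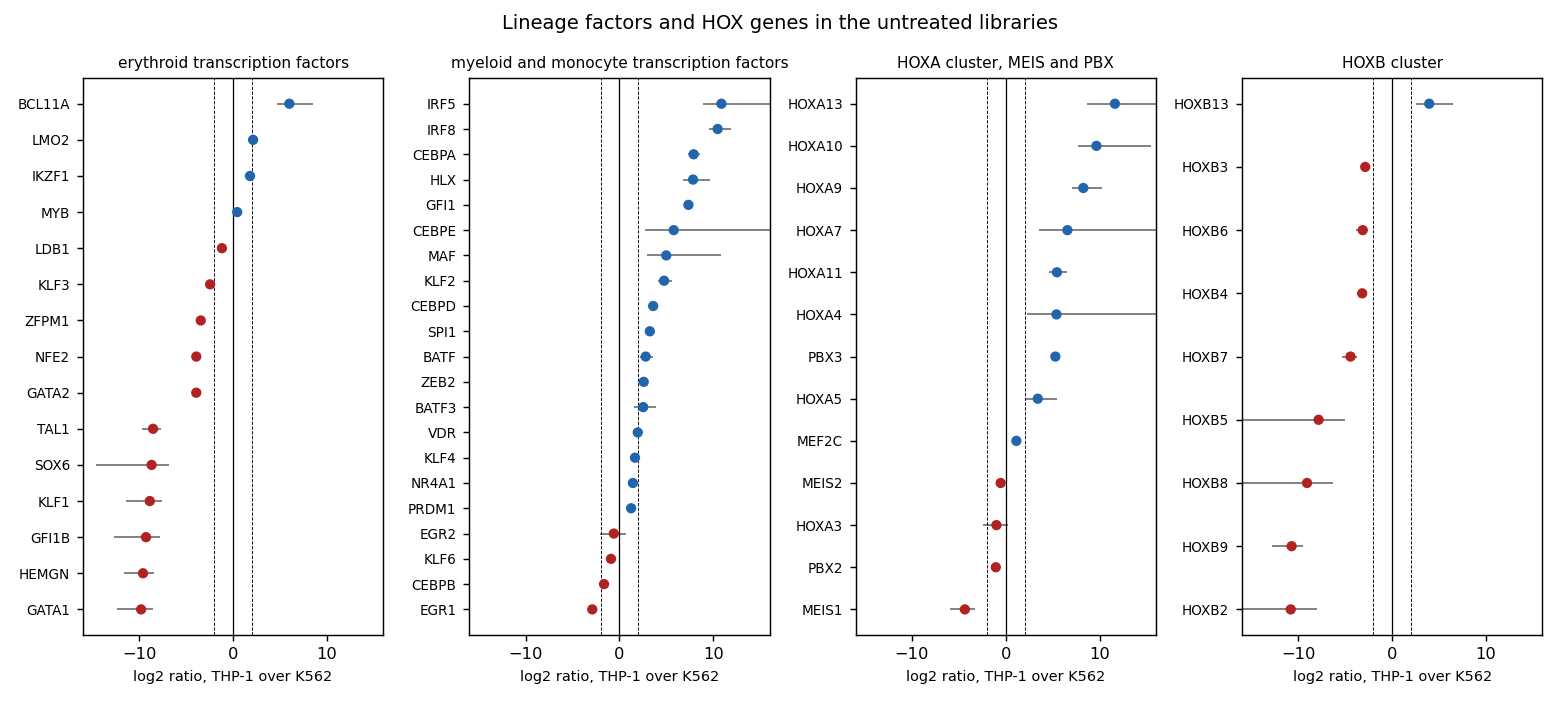
Log2 ratios of THP-1 over K562 for compared members of 4 lists that are reported here, 1 gene per row, with 95% counting intervals as horizontal lines that run to the edge of the panel where they have no bound or pass it. Dashed lines mark 4-fold. GATA1 lies furthest left of the erythroid factors at -9.80 and IRF5 furthest right of the myeloid factors at 10.86, and HOXB genes other than HOXB13 lie left of 0, where HOXA3, MEIS1, MEIS2 and PBX2 also lie.

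The gene-level counts of the fusion partners did not set the lines apart by 4-fold. BCR had 2290 counts in K562 and 1536 in THP-1 (1.73-fold, 95% interval 1.62 to 1.84 higher in K562) and ABL1 had 5200 counts in K562 and 2216 in THP-1 (2.72-fold, 95% interval 2.58 to 2.86 higher in K562). KMT2A had 6234 counts in K562 and 3760 in THP-1 (1.92-fold, 95% interval 1.84 to 2.0 higher in K562) and MLLT3 had 81 counts in K562 and 221 in THP-1 (2.36-fold, 95% interval 1.82 to 3.08 higher in THP-1). A count per gene does not separate fusion from normal transcripts.

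Globin chains, known targets of these erythroid factors, were found in K562. All 7 that were compared were called higher in K562 (median log2 ratio -8.66), and globins took 0.188% of K562 counts (95% Wilson interval 0.186 to 0.190) against 0.000369% of THP-1 counts. The fetal chains had the most counts, with 12616 counts in K562 and 24 in THP-1 for HBG2 (608-fold, 95% interval 409 to 950.0) and 7877 counts in K562 and 22 in THP-1 for HBG1 (414-fold, 95% interval 274 to 662). The embryonic chains were present too, with 2295 counts in K562 and 2 in THP-1 for HBE1 (1328-fold, 95% interval 367 to 10974) and 2119 counts in K562 and 8 in THP-1 for HBZ (307-fold, 95% interval 155 to 711). Of the alpha chains, HBA1 had 4625 counts in K562 and 10 in THP-1 (535-fold, 95% interval 291 to 1117) and HBA2 had 1138 counts in K562 and 10 in THP-1 (132-fold, 95% interval 71.4 to 275). Among the remaining chains HBQ1 had 61 counts in K562 and 0 in THP-1 (at least 23.5-fold). The adult beta chain HBB and the chain HBM had no count in either library, and HBD had 9 counts in K562 and 0 in THP-1. Of the beta-type chains, K562 thus held the embryonic and fetal ones with few counts of HBD and none of HBB. HBG1 and HBG2, and HBA1 and HBA2, are near copies, and a gene with no symbol in the table, ENSG00000284931, overlaps both HBG genes, so reads could be divided among them and values within each pair are uncertain.

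Per length of transcript, HBG2 was the 15th most abundant gene in K562 at 849.8 CPM per kilobase. Ahead of it stood ferritin and mitochondrially encoded transcripts, EEF1A1 and RPLP0. In THP-1 the granule proteoglycan SRGN stood 12th at 2158 CPM per kilobase. HBG2 and SRGN were thus among the most abundant transcripts of their own line.

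Heme synthesis was higher in K562 at some steps only, with 4 of 12 genes called higher in K562 and 0 in THP-1 (median log2 ratio -0.95). ALAS2, the erythroid form of the first enzyme, had 1483 counts in K562 and 3 in THP-1 (572-fold, 95% interval 195 to 2778), whereas ALAS1, the form used by other cells, had 415 counts in K562 and 1742 in THP-1 (3.63-fold, 95% interval 3.26 to 4.05 higher in THP-1). UROD had 6971 counts in K562 and 673 in THP-1 (12-fold, 95% interval 11.1 to 13) and the mitochondrial carrier TMEM14C had 3154 counts in K562 and 418 in THP-1 (8.73-fold, 95% interval 7.88 to 9.69), both higher in K562. The last enzyme, FECH, differed by less, with 1445 counts in K562 and 798 in THP-1 (2.1-fold, 95% interval 1.92 to 2.29), and of the genes under 4-fold PPOX had the lowest log2 ratio, -1.94, and ALAS1 the highest, 1.86.

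Of 26 red cell membrane and blood group genes compared, 19 were called higher in K562 and 1 in THP-1, with a median log2 ratio of -5.58. GYPB, a glycophorin with near copies in the genome and so uncertain, had 599 counts in K562 and 0 in THP-1 (at least 231-fold). RHAG, the partner of the Rh proteins, had 7340 counts in K562 and 10 in THP-1 (849.6-fold, 95% interval 462 to 1772), and KEL, the Kell antigen, had 1140 counts in K562 and 2 in THP-1 (659.7-fold, 95% interval 182 to 5454). These blood group proteins were thus near the limit of counting in THP-1. The exception was CA2, carbonic anhydrase 2, with 257 counts in K562 and 50155 in THP-1 (169-fold, 95% interval 149 to 191 higher in THP-1). CA2 held most of the list's counts in THP-1, so the sum over the list was 57534 counts in K562 and 66094 in THP-1 although most members were called higher in K562.

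Most iron genes had lower values in THP-1, as 4 of 17 compared had a positive log2 ratio. FTH1, the ferritin heavy chain, had 57546 counts in K562 and 8513 in THP-1 (7.82-fold, 95% interval 7.65 to 8.01 higher in K562), while FTL, the light chain, had 28309 counts in K562 and 28563 in THP-1 (1.15-fold, 95% interval 1.13 to 1.17 higher in K562). The heavy chain thus differed far more than the light chain. TFR2, the second transferrin receptor, had 2090 counts in K562 and 125 in THP-1 (19.4-fold, 95% interval 16.2 to 23.4), SLC40A1, the iron exporter, had 1143 counts in K562 and 192 in THP-1 (6.89-fold, 95% interval 5.91 to 8.07), and HMOX1, which degrades heme, had 4 counts in K562 and 40 in THP-1 (8.64-fold, 95% interval 3.12 to 33.2 higher in THP-1). In all, 5 of 17 compared iron genes were called higher in K562 and 1 in THP-1 (median -0.40).

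Megakaryocyte and platelet genes mostly favoured K562. Of 13 compared, 8 were called higher in K562 and 2 in THP-1. The median log2 ratio was -2.96, or -4.39 for genes whose mean reached 5 CPM. GP1BB, a platelet receptor for von Willebrand factor, had 1193 counts in K562 and 14 in THP-1 (98.6-fold, 95% interval 58.6 to 181), GP6, a collagen receptor, had 109 counts in K562 and 2 in THP-1 (63.1-fold, 95% interval 17 to 527), and TUBB1, the tubulin of platelets, had 449 counts in K562 and 12 in THP-1 (43.3-fold, 95% interval 24.5 to 84.4). GP1BB shares its place with SEPTIN5 and the gene ENSG00000284874, which overlap it on chromosome 22, so its reads may be theirs in part. Defining platelet genes were scarce in both libraries, as PF4 had no count in either and ITGA2B had 126 counts in K562 and 25 in THP-1. FLI1, a factor of the platelet path, was called higher in THP-1, with 3 counts in K562 and 4330 in THP-1 (1247-fold, 95% interval 426 to 6049).

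Granule proteins of neutrophils and monocytes took 0.565% of THP-1 counts (95% Wilson interval 0.562 to 0.569) and 0.0226% of K562 counts. Of 17 compared, 14 were called higher in THP-1 and 1 in K562, with a median log2 ratio of 6.79, or 4.79 with genes at 0 set to their bound and 7.89 for genes whose mean reached 5 CPM. The serine proteases of azurophil granules led. CTSG had 1 count in K562 and 6226 in THP-1 (5379-fold, 95% interval 965 to 212498), ELANE had 5 counts in K562 and 9037 in THP-1 (1562-fold, 95% interval 669 to 4810.4), and PRTN3, whose promoter is shown above, had 6 counts in K562 and 8669 in THP-1 (1248-fold, 95% interval 573 to 3402). AZU1, an inactive relative of these proteases, had 79 counts in K562 and 21890 in THP-1 (239-fold, 95% interval 192 to 303). AZU1, PRTN3, ELANE and CFD lie side by side on chromosome 19 (825097 to 863630, hg38) and formed a run of genes called higher in THP-1.

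Not every granule gene was high in THP-1. SRGN, which packs proteases in granules, had 37 counts in K562 and 52067 in THP-1 (1216-fold, 95% interval 882 to 1727) and RNASE2, an eosinophil and monocyte ribonuclease, had 3 counts in K562 and 4340 in THP-1 (1249.9-fold, 95% interval 427 to 6063). MPO, the peroxidase that defines azurophil granules, reached only 43 counts in THP-1 against 0 in K562 (at least 12.4-fold). S100A8 and S100A9, the calcium-binding proteins abundant in blood monocytes, had 25 and 96 counts in THP-1 and none in K562. The member called higher in K562 was PRG2, an eosinophil granule protein, with 28 counts in K562 and 3 in THP-1 (10.8-fold, 95% interval 3.34 to 55.5). LYZ, lysozyme, was present in both lines, with 752 counts in K562 and 3962 in THP-1 (4.55-fold, 95% interval 4.21 to 4.93).

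Monocyte surface receptors had 1 of the highest medians of the 39 lists. Of 29 compared, 24 were called higher in THP-1 and 0 in K562, with a median log2 ratio of 8.15, or 6.99 with genes at 0 set to their bound. CCR2, the chemokine receptor of classical monocytes, had 0 counts in K562 and 3232 in THP-1 (at least 931-fold), and CCR1, a related receptor, had 0 counts in K562 and 844 in THP-1 (at least 243-fold). SIRPA, the receptor for CD47, had 1 count in K562 and 1989 in THP-1 (1718-fold, 95% interval 308 to 67909). LILRB4, an inhibitory receptor of monocytic leukemia cells, had 3 counts in K562 and 4063 in THP-1 (1170.1-fold, 95% interval 400.1 to 5676). ITGB2, the common chain of leukocyte integrins, had 9 counts in K562 and 9118 in THP-1 (875-fold, 95% interval 461 to 1915). CSF1R, the receptor for the macrophage growth factor, had 3 counts in K562 and 3086 in THP-1 (889-fold, 95% interval 304 to 4312).

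The labelled identity of THP-1 was checked against markers as well. FCGR1A, the high affinity Fc receptor, had 11 counts in K562 and 1724 in THP-1 (135-fold, 95% interval 75.5 to 272), ITGAM had 33 counts in K562 and 572 in THP-1 (15-fold, 95% interval 10.5 to 22) and CD68, a lysosomal marker of macrophages, had 289 counts in K562 and 3069 in THP-1 (9.17-fold, 95% interval 8.13 to 10.4). CD33, a sialic acid receptor of the myeloid path, was present in both, with 362 counts in K562 and 1352 in THP-1 (3.23-fold, 95% interval 2.87 to 3.63). Other receptors of monocytes and macrophages were at or near 0 in both libraries, as CD14 had 1 count in K562 and 8 in THP-1, and FCGR3A and CD163 each with 0 counts in K562 and 1 in THP-1. THP-1 thus matched the monocytic path with CD14, the classical monocyte marker, close to the limit of counting. The sum over the 39 receptors listed was 1995 counts in K562 and 52828 in THP-1.

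Progenitor and pan-leukocyte antigens were mixed, with 18 of 35 called higher in THP-1, 4 in K562 and a median log2 ratio of 2.15. ITGA4, the alpha chain of VLA-4 that anchors blood cells to bone marrow stroma, had 0 counts in K562 and 5850 in THP-1 (at least 1685-fold), the largest log2 ratio of any gene whose mean reached 50 CPM. FLT3, the receptor tyrosine kinase of progenitors, had 0 counts in K562 and 2175 in THP-1 (at least 626-fold). CD244, an immune receptor, had 0 counts in K562 and 613 in THP-1 (at least 177-fold), LAIR1, a collagen receptor, had 7 counts in K562 and 5517 in THP-1 (681-fold, 95% interval 330.3 to 1694), and IL3RA, the interleukin-3 receptor chain, had 0 counts in K562 and 213 in THP-1 (at least 61.3-fold). CD34, the stem cell antigen, had no count in either library.

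The 4 antigens of this list called higher in K562 were ICAM1, ICAM2, CD59 and CD55. Other adhesion genes, such as ITGA4 and PECAM1, were called higher in THP-1. ICAM1, a ligand of leukocyte integrins, had 1272 counts in K562 and 63 in THP-1 (23.4-fold, 95% interval 18.1 to 30.6) and ICAM2 had 840 counts in K562 and 100 in THP-1 (9.72-fold, 95% interval 7.89 to 12.1). Of the proteins that shield cells from complement, CD59 had 2822 counts in K562 and 276 in THP-1 (11.8-fold, 95% interval 10.5 to 13.4) and CD55 had 3064 counts in K562 and 488 in THP-1 (7.27-fold, 95% interval 6.6 to 8.01). ICAM1, ICAM4 and ICAM5 with FDX2 formed a run on chromosome 19 (10270835 to 10316015) called higher in K562, while the integrin chain that binds ICAM proteins, ITGB2, was almost absent from K562. Ligand and receptor were thus high in opposite lines.

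Among MHC class I genes, classical chains and some of the machinery differed. HLA-B had 6 counts in K562 and 4110 in THP-1 (592-fold, 95% interval 272 to 1614) and HLA-C had 56 counts in K562 and 686 in THP-1 (10.6-fold, 95% interval 8.05 to 14.2). NLRC5, the transactivator of class I genes, had 2 counts in K562 and 901 in THP-1 (389-fold, 95% interval 107 to 3219) and PSMB8, an immunoproteasome subunit, had 11 counts in K562 and 1912 in THP-1 (150.2-fold, 95% interval 83.7 to 301), all higher in THP-1. B2M, the light chain shared by all class I molecules, was plentiful in both, with 7157 counts in K562 and 14710 in THP-1 (1.78-fold, 95% interval 1.73 to 1.83), and the chaperone CALR had 7304 counts in K562 and 9627 in THP-1 (1.14-fold, 95% interval 1.1 to 1.17). In all, 8 of 19 class I genes were called higher in THP-1 and 0 in K562, with a median log2 ratio of 1.02. HLA genes resemble each other and are highly variable, so the counts of single HLA genes are uncertain.

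MHC class II and costimulation genes were called higher in THP-1 for 9 of 13 and in K562 for 2, with a median log2 ratio of 6.38, or 3.66 with genes at 0 set to their bound and 8.66 for genes whose mean reached 5 CPM. CD74, the invariant chain, had 1 count in K562 and 4554 in THP-1 (3935-fold, 95% interval 706 to 155440.0) and HLA-DRB1 had 0 counts in K562 and 1545 in THP-1 (at least 445-fold). CIITA, the class II transactivator, had 48 counts in K562 and 244 in THP-1 (4.39-fold, 95% interval 3.21 to 6.12), so the K562 library held CIITA counts with no HLA-DR counts. The costimulatory ligand CD80 had 945 counts in K562 and 0 in THP-1 (at least 365-fold higher in K562), and CD86, with 1 count in K562 and 8 in THP-1, was below the count filter. HLA-DOB, a chain that tunes peptide loading, was also called higher in K562, with 56 counts in K562 and 1 in THP-1 (64.8-fold, 95% interval 11.2 to 2605).

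Of 19 Toll-like receptor and innate sensor genes compared, 10 were called higher in THP-1 and 0 in K562 (median log2 ratio 2.35, or 3.87 for genes whose mean reached 5 CPM), while 3 were at least 2-fold higher in K562, led by TLR5, the flagellin receptor, with 26 counts in K562 and 10 in THP-1. TLR2, the receptor for bacterial lipoproteins, had 0 counts in K562 and 2447 in THP-1 (at least 705-fold). NLRP3, the inflammasome sensor, had 1 count in K562 and 2528 in THP-1 (2184-fold, 95% interval 392 to 86302), and PYCARD, its adaptor, had 1 count in K562 and 1125 in THP-1 (972-fold, 95% interval 174 to 38425). NOD2 had 0 counts in K562 and 128 in THP-1 (at least 36.9-fold) and IRAK3, which dampens receptor signals, had 8 counts in K562 and 6814 in THP-1 (736-fold, 95% interval 373 to 1705). TLR4, the receptor for endotoxin, had 3 counts in K562 and 781 in THP-1, yet its coreceptor CD14 and its partner LY96 were low, with 11 counts in K562 and 6 in THP-1 for LY96. Shared adaptors were expressed in both lines, such as MYD88 with 1179 counts in K562 and 862 in THP-1 (1.58-fold, 95% interval 1.45 to 1.73 higher in K562).

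Among Siglecs and inhibitory receptors, 8 of 14 were called higher in THP-1 and 3 in K562, with a median of 3.84, or 2.48 with genes at 0 set to their bound and 2.0 for genes whose mean reached 5 CPM. SIGLEC14, an activating Siglec of myeloid cells, had 0 counts in K562 and 224 in THP-1 (at least 64.5-fold), SIGLEC10 had 0 counts in K562 and 97 in THP-1 and SIGLEC5 had 0 counts in K562 and 90 in THP-1. The members called higher in K562 had few counts, with 35 counts in K562 and 0 in THP-1 for SIGLEC8, 25 counts in K562 and 0 in THP-1 for MAG and 66 counts in K562 and 2 in THP-1 for CD22.

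Markers of other cell types were also counted. Of the B cell list, 4 of 10 genes passed the count filter and MS4A1 had no count, with sums of 108 counts in K562 and 167 in THP-1. PAX5, the B cell factor, had 0 counts in K562 and 122 in THP-1, all of them in the monocytic line, while CD79A, of the B cell receptor, had 1 count in K562 and 4 in THP-1. Of the T and NK cell list, 5 of 16 passed, with sums of 357 and 3397 counts. NCAM1, the NK cell antigen CD56, held nearly all of the latter, with 3 counts in K562 and 3134 in THP-1 (903-fold, 95% interval 309 to 4379), and CD3D, a part of the T cell receptor complex, had 121 counts in K562 and 0 in THP-1 (at least 46.7-fold). Of the epithelial and stromal list, 7 of 15 passed, with sums of 12568 counts in K562 and 8094 in THP-1, and 5 were called higher in K562 and 2 in THP-1. In K562 the keratins of simple epithelia carried them, with 6466 counts in K562 and 6 in THP-1 for KRT18 (1247-fold, 95% interval 573 to 3400.2), 3736 counts in K562 and 11 in THP-1 for KRT8 (393-fold, 95% interval 219 to 788) and 1522 counts in K562 and 6 in THP-1 for KRT19 (294-fold, 95% interval 135 to 801), while the epithelial cadherin CDH1 had no count in either library. In THP-1 PECAM1, an adhesion molecule of endothelium and monocytes, carried them, with 64 counts in K562 and 8033 in THP-1 (108-fold, 95% interval 84.8 to 141).

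**Figure D3:**
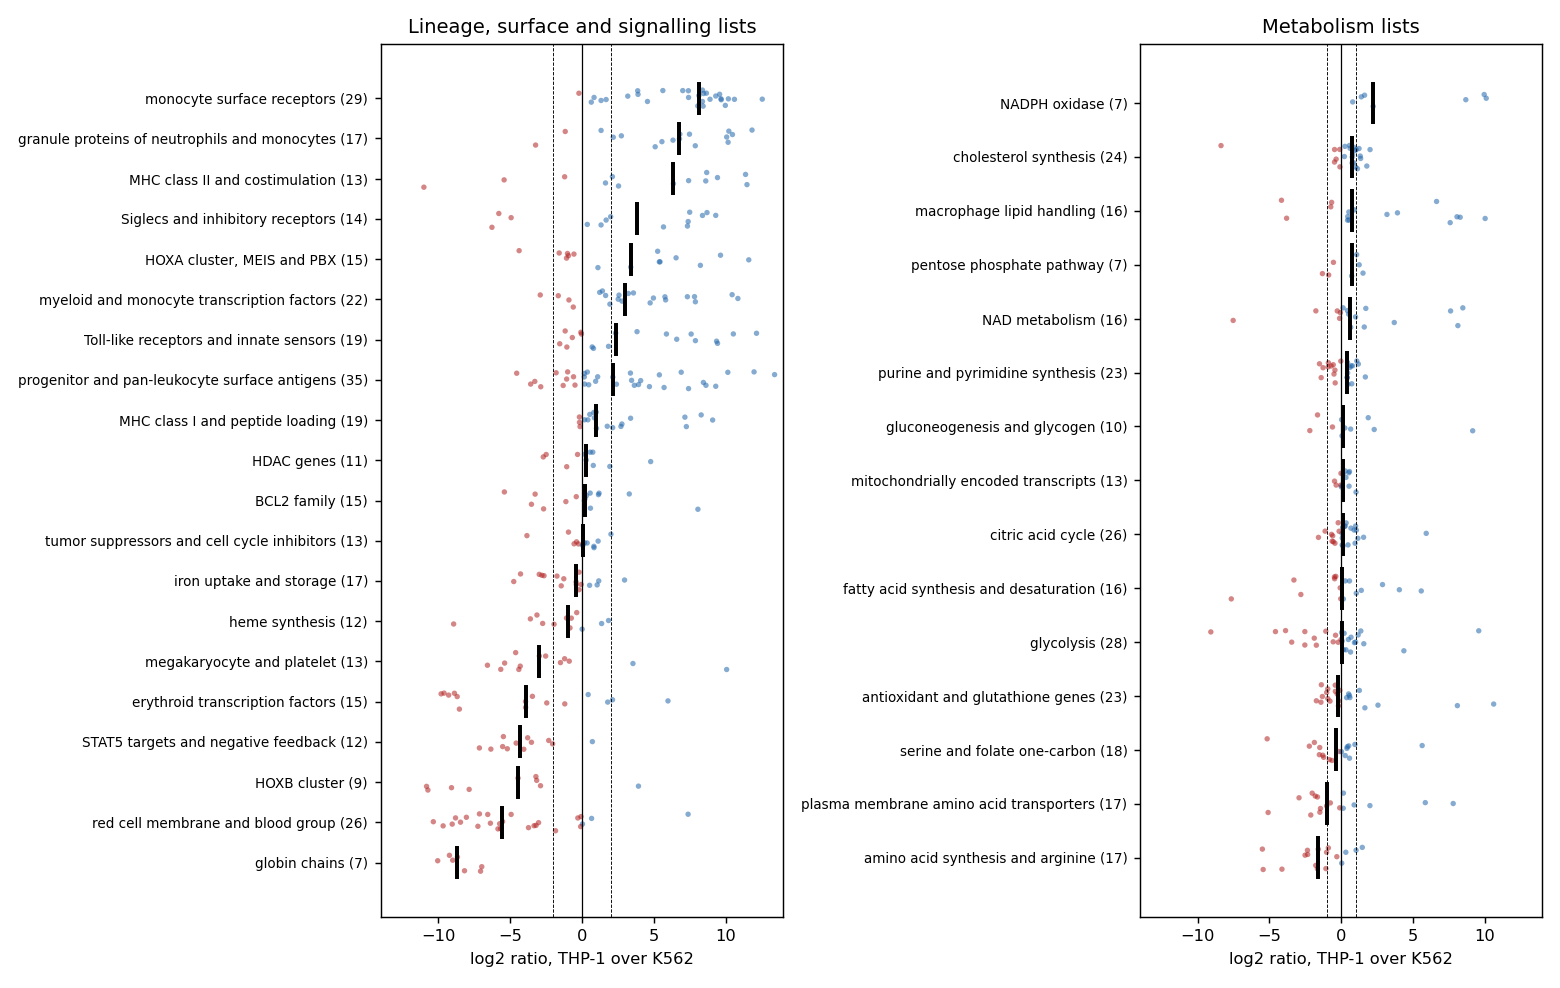
Log2 ratios of THP-1 over K562 for every compared member of the lineage, surface and signalling lists (left) and the metabolism lists (right), with the number compared in parentheses. Points are genes, thick bars list medians, and dashed lines mark 4-fold on the left and 2-fold on the right. Medians ran from 8.15 for monocyte surface receptors to -8.66 for globin chains on the left, and from 2.22 for NADPH oxidase to -1.60 for amino acid synthesis on the right.

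STAT5 is a known mediator of BCR-ABL1 signals. A list of its target and feedback genes, which also held the upstream kinase JAK2, was mostly higher in K562. Of 12 compared, 11 were called higher in K562 and 0 in THP-1, with a median log2 ratio of -4.31. CCND2, a cyclin of G1 phase, had 2971 counts in K562 and 24 in THP-1 (143-fold, 95% interval 96.1 to 224). PIM1, a survival kinase, had 14315 counts in K562 and 205 in THP-1 (80.8-fold, 95% interval 70.4 to 93.2). Feedback inhibitors in the list were SOCS1 with 336 counts in K562 and 8 in THP-1 (48.6-fold, 95% interval 24.4 to 114) and SOCS2 with 6071 counts in K562 and 159 in THP-1 (44.2-fold, 95% interval 37.8 to 52.1). STAT5A itself had 12851 counts in K562 and 408 in THP-1 (36.5-fold, 95% interval 33 to 40.3), so the factor and the targets named here were higher in the same line. The member not called was JAK2, the kinase upstream of STAT5 in normal cells, with 1297 counts in K562 and 2495 in THP-1 (1.66-fold, 95% interval 1.55 to 1.78 higher in THP-1).

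Of the BCL2 family of survival and death proteins, 2 of 15 were called higher in THP-1, a share near that of all genes, and 4 in K562. BCL2 had 659 counts in K562 and 7520 in THP-1 (9.86-fold, 95% interval 9.1 to 10.7 higher in THP-1), whereas BCL2L1, which encodes BCL-XL, had 6050 counts in K562 and 615 in THP-1 (11.4-fold, 95% interval 10.5 to 12.4 higher in K562). MCL1, the other common survival member, was alike within 2-fold, with 5243 counts in K562 and 7573 in THP-1 (1.25-fold, 95% interval 1.2 to 1.29 higher in THP-1). Of the death-promoting members, BIK had 1 count in K562 and 457 in THP-1 (395-fold, 95% interval 70.5 to 15629 higher in THP-1) and BBC3 had 637 counts in K562 and 116 in THP-1 (6.36-fold, 95% interval 5.21 to 7.82 higher in K562).

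Of 13 tumor suppressors and cell cycle inhibitors compared, 1 was called higher in each line. Among all genes compared, 14.8% were called higher in THP-1 and 11.6% in K562, so this list did not stand out. CDKN2A and CDKN2B, inhibitors of the G1 kinases, had no count in either library, and their neighbour MTAP, a methionine salvage enzyme, had 4 counts in K562 and 11 in THP-1. CDKN2C, an inhibitor of the same family, had 928 counts in K562 and 4374 in THP-1 (4.07-fold, 95% interval 3.79 to 4.38 higher in THP-1), and CDKN1C had 165 counts in K562 and 13 in THP-1 (14.7-fold, 95% interval 8.36 to 28.2 higher in K562).

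The histone deacetylases, the family of the study's proposed drug target, were expressed in both lines. HDAC10 had 408 counts in K562 and 801 in THP-1, 1.70-fold higher in THP-1 (95% interval 1.5 to 1.92). HDAC9, a class IIa member, was the family's largest difference toward THP-1, with 179 counts in K562 and 5747 in THP-1 (27.7-fold, 95% interval 23.9 to 32.4). HDAC7, also of class IIa, had 2223 counts in K562 and 400 in THP-1 (6.43-fold, 95% interval 5.78 to 7.17) and HDAC11 had 152 counts in K562 and 31 in THP-1 (5.68-fold, 95% interval 3.84 to 8.64), both called higher in K562. HDAC4, HDAC5, HDAC8, HDAC1, HDAC2, HDAC3 and HDAC6 were not called at 4-fold, with log2 ratios between -1.05 for HDAC6 and 1.95 for HDAC4. The called class IIa members, HDAC9 and HDAC7, went in opposite directions. In all, 1 of 11 HDAC genes was called higher in THP-1 and 2 in K562, against 14.8% and 11.6% of all genes compared. With so few genes these shares do not set the family apart.

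Metabolic genes are described at 2-fold, since most are expressed in every cell. Among all genes compared, 3161 (23.6%) were at least 2-fold higher in THP-1 and 2868 (21.4%) at least 2-fold higher in K562, 45.0% in either direction. Glycolysis as a list had a median log2 ratio near 0 (0.04), with 5 of 28 genes 2-fold higher in THP-1 and 9 in K562, and several differences lay between forms of 1 enzyme. PKLR, the pyruvate kinase of red cells and liver, had 1186 counts in K562 and 2 in THP-1 (686-fold, 95% interval 189.6 to 5674 higher in K562), while PKM, the form of most other cells, had 4292 counts in K562 and 12743 in THP-1 (2.57-fold, 95% interval 2.48 to 2.66 higher in THP-1). HK1, a hexokinase, had 7361 counts in K562 and 1468 in THP-1 (5.8-fold, 95% interval 5.49 to 6.14 higher in K562), and HK3, the hexokinase of white blood cells, had 0 counts in K562 and 406 in THP-1 (at least 117-fold higher in THP-1).

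Transporters split in the same way. SLC2A3, a high affinity glucose transporter, had 3983 counts in K562 and 192 in THP-1 (24-fold, 95% interval 20.8 to 27.9 higher in K562). SLC16A3, a lactate exporter, had 67 counts in K562 and 1597 in THP-1 (20.6-fold, 95% interval 16.1 to 26.7 higher in THP-1), whereas SLC16A1, its relative, had 7096 counts in K562 and 2230 in THP-1 (3.68-fold, 95% interval 3.51 to 3.86 higher in K562). GAPDH, the glycolytic enzyme often used as a reference, was close in both, with 27588 counts in K562 and 32312 in THP-1 (1.01-fold, 95% interval 0.996 to 1.03).

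In the pentose phosphate pathway, 3 of 7 genes were 2-fold higher in THP-1 and 1 in K562. RPE, of the later branch, had 806 counts in K562 and 2660 in THP-1 (2.85-fold, 95% interval 2.63 to 3.09 higher in THP-1) and PGLS, of the second step, had 634 counts in K562 and 1740 in THP-1 (2.37-fold, 95% interval 2.16 to 2.6 higher in THP-1). FBP1, which drives glucose synthesis, had 0 counts in K562 and 303 in THP-1 (at least 87.3-fold higher in THP-1), and 3 of 10 gluconeogenesis and glycogen genes were higher in THP-1 and 2 in K562. The isocitrate dehydrogenases went apart, as the cytosolic IDH1 had 5599 counts in K562 and 2152 in THP-1 (3.01-fold, 95% interval 2.86 to 3.17 higher in K562) and the mitochondrial IDH2 had 1438 counts in K562 and 4881 in THP-1 (2.93-fold, 95% interval 2.76 to 3.11 higher in THP-1). Of 26 citric acid cycle genes 4 were higher in THP-1 and 2 in K562, and the widest difference was at ME3, a mitochondrial malic enzyme, with 2 counts in K562 and 171 in THP-1 (73.9-fold, 95% interval 20.1 to 615 higher in THP-1). Of 13 mitochondrially encoded transcripts 1 was 2-fold higher in THP-1, MT-ND6 with 2773 counts in K562 and 6533 in THP-1.

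Of 24 cholesterol synthesis genes, 7 were 2-fold higher in THP-1, a share near that of all genes, and 1 in K562. Log2 ratios in this list ran from -8.37 to 2.0 with a median of 0.77. SC5D, an enzyme of the last steps, had 615 counts in K562 and 2439 in THP-1 (3.43-fold, 95% interval 3.14 to 3.75), and INSIG1, a brake on sterol synthesis, had 1805 counts in K562 and 5212 in THP-1 (2.49-fold, 95% interval 2.36 to 2.63). In macrophage lipid handling, 7 of 16 were higher in THP-1 and 2 in K562. LIPA, the lysosomal lipase, had 6 counts in K562 and 2315 in THP-1 (333-fold, 95% interval 153 to 909), ABCA1, the cholesterol exporter, had 2 counts in K562 and 756 in THP-1 (327-fold, 95% interval 90.1 to 2702), and APOC2 had 1 count in K562 and 1748 in THP-1 (1510.2-fold, 95% interval 271 to 59685). Apolipoproteins parted within a gene cluster, since APOE had 720 counts in K562 and 46 in THP-1 (18.1-fold, 95% interval 13.4 to 25 higher in K562) and APOC1 had 1094 counts in K562 and 90 in THP-1 (14.1-fold, 95% interval 11.3 to 17.6 higher in K562).

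Of 16 fatty acid genes 5 were at least 2-fold higher in THP-1 and 3 in K562, shares near those of all genes. ELOVL6, an elongase of saturated fatty acids, had 1313 counts in K562 and 7 in THP-1 (217-fold, 95% interval 105 to 541 higher in K562). SCD5, a desaturase, had 4 counts in K562 and 244 in THP-1 (52.7-fold, 95% interval 20.3 to 195 higher in THP-1), while SCD, its main relative, had 11343 counts in K562 and 12782 in THP-1 (1.03-fold, 95% interval 1.0 to 1.05).

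Amino acid genes leaned to K562. Of 17 amino acid synthesis and arginine genes, 11 were 2-fold higher in K562 and 2 in THP-1 (median log2 ratio -1.60). CTH, which makes cysteine, had 2121 counts in K562 and 54 in THP-1 (45.5-fold, 95% interval 34.7 to 60.7), ARG2, the mitochondrial arginase, had 694 counts in K562 and 18 in THP-1 (44.6-fold, 95% interval 28 to 75.7) and GOT1, which makes aspartate, had 4106 counts in K562 and 271 in THP-1 (17.5-fold, 95% interval 15.5 to 19.9). ASS1, the entry to arginine synthesis, was an exception, with 1362 counts in K562 and 4341 in THP-1 (2.75-fold, 95% interval 2.59 to 2.93 higher in THP-1). Amino acid transporters followed, with 9 of 17 higher in K562 and 3 in THP-1 (median -1.02). SLC6A9, the glycine importer that red cell precursors use for heme, had 2553 counts in K562 and 86 in THP-1 (34.4-fold, 95% interval 27.7 to 43.1) and SLC7A11, the cystine importer, had 3282 counts in K562 and 494 in THP-1 (7.69-fold, 95% interval 6.99 to 8.47). In the serine and folate list, 7 of 18 were higher in K562 and 1 in THP-1, such as PSPH, the last enzyme of serine synthesis, with 1195 counts in K562 and 377 in THP-1 (3.67-fold, 95% interval 3.26 to 4.13) and SHMT2, a mitochondrial enzyme that takes a carbon from serine, with 12203 counts in K562 and 4994 in THP-1 (2.83-fold, 95% interval 2.74 to 2.92). In nucleotide synthesis 3 of 23 were higher in each line, with CTPS1, which makes cytidine nucleotides, at 2743 counts in K562 and 10127 in THP-1 (3.19-fold, 95% interval 3.06 to 3.33 higher in THP-1).

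All 7 NADPH oxidase genes had positive log2 ratios and 6 were at least 2-fold higher in THP-1 (median 2.22). Cytosolic subunits of the phagocyte oxidase led. NCF1 had 0 counts in K562 and 583 in THP-1 (at least 168-fold) and NCF4 had 5 counts in K562 and 2568 in THP-1 (444-fold, 95% interval 189.9 to 1368). CYBB, the membrane subunit that carries the electrons, differed by less, with 90 counts in K562 and 321 in THP-1 (3.08-fold, 95% interval 2.43 to 3.94 higher in THP-1). NCF1 has near copies in the genome, so its counts are uncertain.

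Of 23 antioxidant and glutathione genes, 5 were 2-fold higher in each line, shares near those of all genes. GPX1, which reduces hydrogen peroxide, had 19 counts in K562 and 6088 in THP-1 (277-fold, 95% interval 177 to 460.1 higher in THP-1), GSTM1 had 0 counts in K562 and 835 in THP-1 (at least 240.5-fold higher in THP-1) and CAT, catalase, had 3111 counts in K562 and 11239 in THP-1 (3.12-fold, 95% interval 3.0 to 3.25 higher in THP-1). Toward K562 the differences were smaller, led by SRXN1 with 1063 counts in K562 and 369 in THP-1 (3.33-fold, 95% interval 2.96 to 3.76) and GCLM, a subunit of glutathione synthesis, with 2392 counts in K562 and 1037 in THP-1 (2.67-fold, 95% interval 2.48 to 2.87). In NAD metabolism 6 of 16 were higher in THP-1 and 2 in K562. Of the surface enzymes that consume NAD, CD38 had 4 counts in K562 and 1816 in THP-1 (392-fold, 95% interval 153 to 1441) and BST1 had 3 counts in K562 and 1110 in THP-1 (319.7-fold, 95% interval 109 to 1552), both higher in THP-1. Toward K562, NNMT, which methylates nicotinamide, had 85 counts in K562 and 0 in THP-1 (at least 32.8-fold) and NAMPT, the salvage enzyme, had 3050 counts in K562 and 1034 in THP-1 (3.41-fold, 95% interval 3.18 to 3.67).

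Outside the lists, the 10 largest log2 ratios toward each line among genes whose mean reached 50 CPM were read. Toward THP-1 they were ITGA4, GOLGA8Q, SERPINB2, CCR2, TIFAB, MS4A7, LY75, TFEC, TLR2 and FLT3, each with no count in K562. SERPINB2, an inhibitor of plasminogen activation made by monocytes, had 3652 counts in THP-1 (at least 1052-fold), and LY75, an endocytic receptor of antigen-presenting cells, had 2638 (at least 759.7-fold). Toward K562 they included MAGEC1, HEPH, SCN9A, TUSC3, IGF2BP1, ALDH1A1, HOXB9, SAGE1 and MYO18B. HEPH, an iron oxidase, had 5589 counts in K562 and 2 in THP-1 (3234-fold, 95% interval 895 to 26714). IGF2BP1, a fetal RNA-binding protein, had 5396 counts in K562 and 3 in THP-1 (2082-fold, 95% interval 712 to 10098), and MAGEC1, a gene otherwise expressed in testis and tumors, had 2151 counts in K562 and 0 in THP-1 (at least 829.9-fold).

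Expression was also read along the chromosomes. The 10925 genes whose mean reached 5 CPM were put in order by their hg38 start, without the Y chromosome and the mitochondrial genome, and the median log2 ratio of each window of 15 neighbours was taken, less the median of all these genes. Of 10603 windows, 3.17% lay at or above 1 (THP-1 side) and 3.68% at or below -1 (K562 side), and the middle 90% lay between -0.92 and 0.86. Overlapping windows past 1 joined to 73 blocks, 40 on the THP-1 side and 33 on the K562 side. The number of blocks changed by over 1.5 times with the window size and the filter. Still, 24 of the 73 blocks shared at least 1 gene with a block of the same sign under all 5 other settings. Of these settings, total-count scaling could change little, since deviations are taken from the overall median. Those described next belong to these 24 unless stated otherwise. Medians of whole chromosomes were modest, from -0.44 for chromosome 21 to 0.57 for chromosome 13.

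The largest block toward K562 lay in the short arm of chromosome 6 from 291630 to 31558829, 130 genes from DUSP22 to NFKBIL1 with a median log2 ratio of -1.80. Of these, 116 were lower in THP-1 and 54 were called at 4-fold. They include genes of unrelated function, such as SERPINB9, an inhibitor of granzyme B, with 1209 counts in K562 and 5 in THP-1, KIF13A, a motor protein, with 1844 counts in K562 and 11 in THP-1, GABBR1, a GABA receptor, with 1625 counts in K562 and 27 in THP-1, and the heme carrier TMEM14C described above. Histone genes of the main cluster were among them, with 2777 counts in K562 and 33 in THP-1 for H1-2 (97.4-fold, 95% interval 69.2 to 142), although histone messages mostly lack poly-A tails and are partly missed in such libraries. Against the trend, 10 genes were called higher in THP-1, among them F13A1, coagulation factor XIII of monocytes, with 0 counts in K562 and 1018 in THP-1 (at least 293-fold), LY86 with 0 counts in K562 and 477 in THP-1, and the class I genes HLA-B and HLA-C.

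By number of genes, the next block toward K562 lay on chromosome 12 from 2794953 to 13142521. It held 67 genes from FKBP4 to FAM234B, with a median of -0.96. Of these, 51 were lower in THP-1, 10 were called higher in K562 at 4-fold and 4 were called higher in THP-1. Another block toward K562 lay on chromosome 22 from 17359949 to 23895227, 63 genes from CECR2 to MIF with a median of -1.69. PRAME, a tumor antigen, had 21342 counts in K562 and 1290 in THP-1 (19.1-fold, 95% interval 18.1 to 20.3), and CRKL, an adaptor known to be bound by BCR-ABL1, had 11089 counts in K562 and 3766 in THP-1 (3.41-fold, 95% interval 3.28 to 3.54). CRKL is under 4-fold and was chosen after its value was seen. In map order PRAME, at 22547701 to 22559361, had a log2 ratio of -4.26 and BCR followed at -0.79. The next genes to the block's end were RGL4, ZNF70, CHCHD10, SMARCB1, SLC2A11 and MIF, at 0.89, 1.12, 0.19, 0.54, -0.68 and 0.27.

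The block toward THP-1 with the most genes lay on chromosome 1 from 38009258 to 44355260, 59 genes from UTP11 to ERI3 with a median of 1.67, and 25 genes called at 4-fold. Summed counts were 102322 in K562 and 677788 in THP-1. CAP1, an actin-binding protein, had 5098 counts in K562 and 169056 in THP-1 (28.7-fold, 95% interval 27.9 to 29.5), PPT1, a lysosomal thioesterase, had 3539 counts in K562 and 97813 in THP-1 (23.9-fold, 95% interval 23.1 to 24.7), and YBX1, an RNA- and DNA-binding protein, had 18891 counts in K562 and 110880 in THP-1 (5.07-fold, 95% interval 4.99 to 5.15). Per length of transcript, YBX1 stood 9th in THP-1 at 2905 CPM per kilobase and CAP1 11th at 2242. Genes with no known role in blood were part of it, as COL9A2, a cartilage collagen, had 76 counts in K562 and 29877 in THP-1 (339.6-fold, 95% interval 271 to 431), and CITED4, a transcription cofactor, had 4 counts in K562 and 5386 in THP-1 (1163-fold, 95% interval 454 to 4271). The exception called higher in K562 was SLC6A9, the glycine importer. Within the block, 7 neighbours from MFSD2A to SMAP2 (39955112 to 40423326) and 5 from ZFP69 to NFYC (40477215 to 40771603) formed runs of genes called higher in THP-1.

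**Figure D4:**
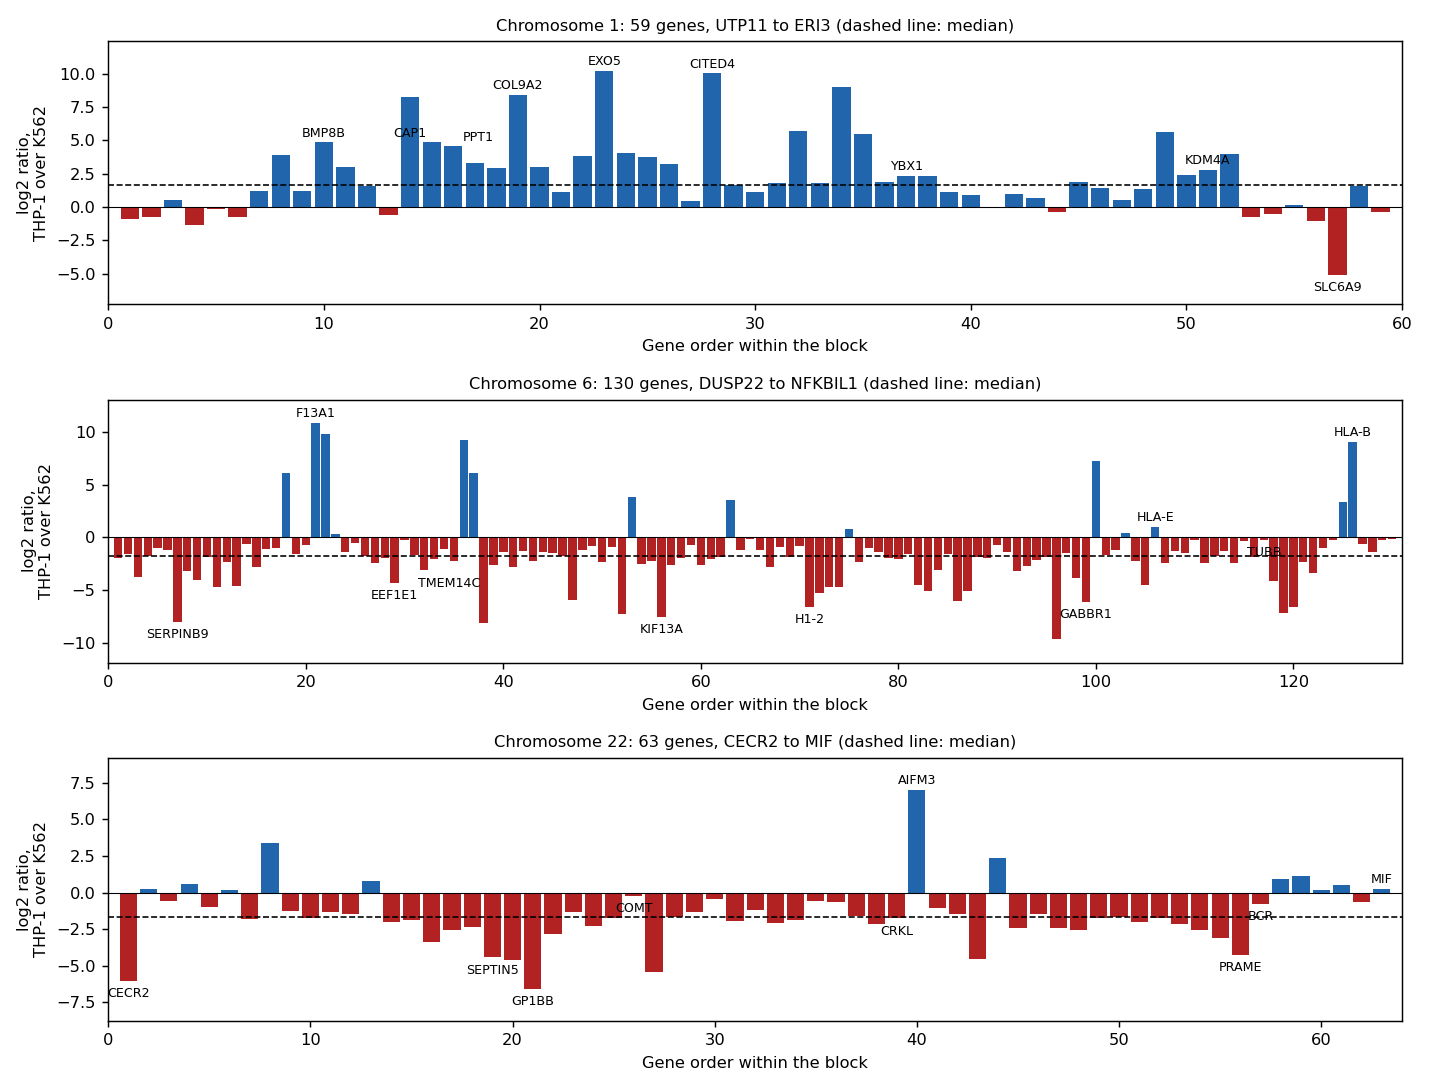
Log2 ratios of THP-1 over K562 for each gene, in map order, in the blocks on chromosomes 1 (59 genes), 6 (130 genes) and 22 (63 genes). Bars are genes, blue higher in THP-1 and red higher in K562, and dashed lines are block medians of 1.67, -1.80 and -1.69. Single genes such as SLC6A9, F13A1, HLA-B and AIFM3 point against their blocks.

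Smaller blocks are given next. On chromosome 11, 57753243 to 60952530, 21 genes had a median of 2.75, the highest of any block, and 6 neighbouring MS4A genes formed a run within it, though the block was lost with windows of 25 genes. Of these membrane proteins, MS4A6A had 2 counts in K562 and 9682 in THP-1 (4183-fold, 95% interval 1158 to 34541) and MS4A7 had 0 counts in K562 and 2772 in THP-1 (at least 798-fold). On chromosome 15, 22867052 to 34437466, 35 genes had a median of 1.46, and GOLGA8 copies such as GOLGA8Q (0 counts in K562 and 4523 in THP-1) and GOLGA8N (21 counts in K562 and 9932 in THP-1) made up most of the called genes. These copies are nearly identical, so reads could be divided among them or placed on the wrong one, and their values are uncertain. SNRPN, an imprinted splicing gene in the same block, had 3 counts in K562 and 2385 in THP-1 (687-fold, 95% interval 235 to 3333).

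On the X chromosome, 149540355 to 153944691, 33 genes had a median of -1.09, and MAGEA genes, tumor antigens otherwise restricted to testis, were among them. MAGEA3 had 1461 counts in K562 and 3 in THP-1 (564-fold, 95% interval 192 to 2736), MAGEA1 had 875 counts in K562 and 2 in THP-1 (506-fold, 95% interval 139.8 to 4188) and MAGEA6 had 1014 counts in K562 and 0 in THP-1 (at least 391-fold), with the same limit for near copies. The adjoining block at 154010500 to 155669944 held FLNA, an actin cross-linker, with 35261 counts in K562 and 431 in THP-1 (94.7-fold, 95% interval 86.1 to 104), and EMD, a nuclear envelope protein, with 1372 counts in K562 and 3 in THP-1 (529-fold, 95% interval 181 to 2569.9). On chromosome 9, 5357973 to 26892804, 25 genes had a median of 1.17 toward THP-1, with 0 counts in K562 and 1415 in THP-1 for HACD4 and 16 counts in K562 and 969 in THP-1 for FOCAD. CDKN2A and CDKN2B, which lie in the same interval, had no count in either library and so were not in the windows.

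The globin genes were part of the strictest pattern, the runs defined above, of which there were 28. HBG1, HBG2, HBE1 and the olfactory receptor genes OR51B4 and OR51B5 with TRIM6 formed 1 run toward K562 on chromosome 11 (5248079 to 5612958). OR51B5, an olfactory receptor gene, had 607 counts in K562 and 0 in THP-1 (at least 234-fold). HBG2 as annotated spans the OR51B4 and OR51B5 genes on the same strand, and the span of HBE1 covers them too. Reads of these genes could therefore be divided, and the value of HBE1 shares this limit. HLA-DRA, HLA-DRB5, HLA-DRB1 and HLA-DQB1 formed a run toward THP-1 on chromosome 6 (32439842 to 32668383), each with no count in K562.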

How the data were processed

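RNA of K562 and THP-1 cells, 1 untreated library each, was compared. The authors deposited estimated counts per gene, not normalized, made from poly-A, paired-end reads (the submitters' processing notes name HISAT2, StringTie 1.3.1 and hg38). The gene annotation and the program that made the counts are not given in the sources used here, and labels and methods name different sequencing platforms. Expected counts were rounded, 18 pseudoautosomal genes listed under 2 identifiers were summed, a choice made after seeing the data, and 20330 genes remained, of which 20118 were placed with GENCODE 29. Counts were scaled by TMM (edgeR 4.0.16, R 4.3.3), log2 ratios took a prior count of 0.5, and 95% intervals are exact binomial (Clopper-Pearson) intervals of the 2 counts. With 1 library per line no test was run. A gene was compared at a mean of at least 10 scaled counts and called at 4-fold (2-fold for metabolism) with an interval that excluded no difference. Promoter sequences are RefSeq's, GRCh38.p14, for 15338 genes.

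The 39 gene lists and the rules were chosen with earlier results of these data known. The genes named are all members of lists of up to 12 genes, the 5 highest and 5 lowest called members of longer lists, fixed marker and fusion genes, the 10 largest ratios each way at a mean of at least 50 CPM, and called genes of blocks and runs. Chosen after their values were seen were GATA2, NFE2, MYB, CEBPE, PBX3, FTL, TLR5, S100A8, S100A9, CD14, CD163, FCGR3A, CD86, CIITA, B2M, CALR, MYD88, LY96, JAK2, MCL1, MTAP, HK1, SLC16A1, GAPDH, SCD, CRKL the HOXA, MEIS and PBX genes named only in a figure caption, and the genes beside BCR on chromosome 22. Some genes that the rule takes are not reported here.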

Additional observations from a re-analysis of the deposited data

How the results depend on the processing

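Each library is a single sample of its line, so counting error is the only error given, leaving out a replicate could not be done, and line, culture and library cannot be told apart. No paired analysis was possible because each line has 1 library and no result comes from a test. Genes at or under 3 counts in both libraries (5502) cannot be told from absent, and 3 counts are 0.176 CPM in K562 and 0.152 in THP-1. Of 286 genes from the lists and rules, the 253 that differed at least 2-fold kept their sign with DESeq2 size factors, a prior count of 2 and total counts with or without mitochondrially encoded genes. That had to hold, because these scalings shift all genes alike by far less than 2-fold and a larger prior count only shrinks ratios. It is therefore no check of the differences. Total-count scaling shifted the median of all genes by -0.12 on the log2 scale.

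Genes called at 4-fold numbered 1163 toward THP-1 and 998 toward K562 with only genes of a mean of at least 5 CPM, and 3161 and 2868 at 2-fold. DESeq2 size factors, total counts, an 8-fold threshold and separate pseudoautosomal identifiers kept both counts within 1.5 times. An added dispersion of 0.16 did so too, but it widens most intervals by less than the 4-fold threshold. It could therefore remove hardly any call, and it does not measure variation between cultures. There were 153 blocks with windows of 10 genes, 24 with windows of 25 and 118 with genes of a mean of at least 1 CPM. Scaled by total counts, list medians were -0.98 for BCR, ABL1, KMT2A and MLLT3, 2.14 for HOXA, MEIS and PBX, 2.10 for NADPH oxidase, -1.72 for amino acid synthesis, -0.32 for antioxidant genes, 0.65 for cholesterol, -0.0137 for the citric acid cycle, -0.0684 for fatty acids, -0.0834 for glycolysis, 0.00386 for mitochondrially encoded transcripts, 0.60 for pentose phosphate, -1.14 for amino acid transporters, 0.29 for purines and pyrimidines, -0.52 for serine and folate, and -0.0434 for tumor suppressors. Medians this near 0 turned sign for the citric acid cycle, fatty acids, glycolysis and tumor suppressors. With a mean of at least 5 CPM, medians were 5.28 for HOXA, MEIS and PBX, 8.66 for MHC class II, 2.0 for Siglecs, 4.63 for T and NK cell markers (from -0.35, with fewer genes tested), 3.87 for innate sensors, 7.89 for granule proteins, -4.39 for megakaryocyte genes and -0.16 for serine and folate. With a prior count of 2 they were 4.43 for MHC class II, 2.88 for Siglecs, 5.09 for granule proteins and 6.86 for monocyte receptors. The B cell list had no member left at a mean of at least 5 CPM. The remaining list medians moved by less than the median width to 1 side of their genes' counting intervals, and among single genes 56 of 286 moved with total counts.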

Other observations

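Further runs of neighbouring genes are given as values without explanation. On chromosome 5 (140966235 to 141218979, hg38), 5 clustered protocadherins, cell adhesion genes known from neurons, were called higher in THP-1, such as PCDHB6 with 1 count in K562 and 478 in THP-1 (413-fold, 95% interval 73.8 to 16346) and PCDHAC2 with 0 counts in K562 and 394 in THP-1 (at least 113-fold). On chromosome 16 (54283304 to 55833337), IRX3, a homeobox factor, had 3 counts in K562 and 2765 in THP-1 (796-fold, 95% interval 272 to 3864) and CES1, a carboxylesterase of liver and macrophages, had 2 counts in K562 and 3306 in THP-1 (1428-fold, 95% interval 395 to 11798). On chromosome 17 (35350305 to 35537861), SLFN11, which blocks stressed DNA replication, had 1 count in K562 and 4237 in THP-1 (3661-fold, 95% interval 657 to 144623). On chromosome 1 (235449923 to 236221865), LYST, a regulator of lysosome size, had 492 counts in K562 and 49002 in THP-1 (86.1-fold, 95% interval 78.7 to 94.2) and NID1, a basement membrane protein, had 4 counts in K562 and 9567 in THP-1 (2066-fold, 95% interval 807 to 7586).

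Toward K562, a run on chromosome 7 (12330885 to 16530580) held ETV1, an ETS factor, with 1146 counts in K562 and 33 in THP-1 (40.2-fold, 95% interval 28.5 to 58.7), and SCIN, an actin-severing protein, with 2659 counts in K562 and 216 in THP-1 (14.2-fold, 95% interval 12.4 to 16.4). A run on chromosome 4 (109560205 to 110199199) held EGF, the epidermal growth factor, with 335 counts in K562 and 3 in THP-1 (129-fold, 95% interval 43.8 to 629.9), next to ELOVL6.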
